A study of Homo sapiens with 6 samples.

Results

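The T-cell checkpoint ligands are 9 genes whose proteins sit on or leave tumour cells and meet receptors of T cells. They were taken by gene symbol as CD274, PDCD1LG2, CD80, CD86, CD276, VTCN1, LGALS9, PVR and NECTIN2, out of 58174 genes in each deposited file, and all 9 were found. The list was drawn up with earlier results of these data known. T24, an established human bladder cancer cell line, carried either an shRNA against UBC9 (shRNA-UBC9, 3 samples) or a scrambled control shRNA (shRNA-NC, 3 samples). Cells were infected with lentivirus made from the pLKO.1 vector and selected with puromycin to stable populations, so infection and selection were common to both groups and the knockdown rested on a single shRNA in a single cell line. Polyadenylated RNA was sequenced. The labels do not say whether the 3 samples of a group were separate cultures, so p-values measure the spread between these samples, which may be technical. The comparison asks which of these ligands changed at the mRNA level when UBC9, the enzyme that transfers SUMO to its substrates, was knocked down.

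A T cell that recognises antigen also reads ligands on the cell in front of it. PD-L1 (CD274) and PD-L2 (PDCD1LG2) engage PD-1 and dampen the T cell. B7-1 (CD80) and B7-2 (CD86), mostly made by antigen-presenting cells, activate it through CD28 and are captured by CTLA-4. B7-H3 (CD276) and B7-H4 (VTCN1) belong to the same family, and galectin-9 (LGALS9) is a ligand of TIM-3. The poliovirus receptor CD155 (PVR) and nectin-2 (NECTIN2) bind the inhibitory receptor TIGIT and the activating receptor DNAM-1. PD-L1 is known as an interferon-inducible gene, and several of these proteins are studied as targets in bladder cancer.

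CD274 and PDCD1LG2 lie close together on chromosome 9, and PVR and NECTIN2 share a region of chromosome 19. In RefSeq's annotation of GRCh38.p14, CD274 lies at chr9:5450542-5470554 and PDCD1LG2 at chr9:5510531-5571282, 40.0 kb apart. PVR lies at chr19:44643910-44666162 and NECTIN2 at chr19:44846297-44889223, 180.1 kb apart. CD276 is found at chr15:73683944-73714514, LGALS9 at chr17:27631188-27649560 and VTCN1 at chr1:117143587-117210927. CD80 and CD86 share chromosome 3, at chr3:119524293-119559614 and chr3:122055362-122121136.

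The 250 bases before the annotated start of the tested ligands are printed here because these genes were all higher in shRNA-UBC9 (RefSeq, GRCh38.p14, each on the plus strand, 5′ to 3′). The windows are chr9:5450292-5450541 for CD274, chr15:73684520-73684769 for the second start of CD276, chr19:44643660-44643909 for PVR and chr19:44846047-44846296 for NECTIN2. PDCD1LG2 had no entry. Capitals mark matches to the motifs searched on both strands.
CD274: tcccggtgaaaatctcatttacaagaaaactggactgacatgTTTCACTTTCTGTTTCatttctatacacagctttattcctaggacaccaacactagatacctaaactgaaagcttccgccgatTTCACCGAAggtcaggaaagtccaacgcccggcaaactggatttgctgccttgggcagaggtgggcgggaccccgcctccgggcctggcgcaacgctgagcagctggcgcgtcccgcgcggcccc
CD276: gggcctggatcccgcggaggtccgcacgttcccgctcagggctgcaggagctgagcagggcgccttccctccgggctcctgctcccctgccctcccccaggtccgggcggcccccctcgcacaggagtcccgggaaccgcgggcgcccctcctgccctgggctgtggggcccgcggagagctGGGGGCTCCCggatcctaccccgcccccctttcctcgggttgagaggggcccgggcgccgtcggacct
PVR: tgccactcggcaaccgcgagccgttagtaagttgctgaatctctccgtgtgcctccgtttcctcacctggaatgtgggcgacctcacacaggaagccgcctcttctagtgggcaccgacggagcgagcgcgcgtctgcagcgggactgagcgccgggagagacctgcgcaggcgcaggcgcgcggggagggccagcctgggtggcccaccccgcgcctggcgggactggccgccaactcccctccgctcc
NECTIN2: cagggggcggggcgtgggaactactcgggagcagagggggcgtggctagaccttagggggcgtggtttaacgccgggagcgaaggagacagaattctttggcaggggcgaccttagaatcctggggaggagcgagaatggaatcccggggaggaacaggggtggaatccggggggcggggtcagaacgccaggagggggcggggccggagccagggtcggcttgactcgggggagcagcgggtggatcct
The searched motifs were the ISRE core (GAAA, any 2 bases, GAAA), the GAS core TTCNNNGAA, the AP-1 site TGANTCA and the kappaB consensus. In the CD274 window, matches to the ISRE core began at -208 and -202 from the start and overlapped each other, and a match to the GAS core (TTCACCGAA) began at -125. Of 35116 windows of this length, 3.02% held the ISRE core, 6.57% the GAS core, 6.57% the AP-1 site and 9.96% the kappaB consensus. The printed CD276 window held a match to the kappaB consensus that began at -68, and the window of its first start, not printed, held no match. The windows of PVR and NECTIN2 held none of these letters. A window was found for 8 of the 9 genes, and the remaining windows held no match except the second start of CD86, with overlapping kappaB matches. GC content was 54.8% in the CD274 window, 70.0% in that of PVR and 67.6% in that of NECTIN2.

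The authors deposited RPKM, read counts scaled to gene length and to mapped reads, a unit in which levels of different genes can be set side by side per length. The steps between low values gave the reads behind each value, and the libraries held 28219032 to 36058872 reads, with ranges that overlapped between the groups. Of 5 epithelial markers, 4 were keratins, which were high and fell, KRT7 from 555.7 RPKM in shRNA-NC to 258.4 RPKM in shRNA-UBC9 on average (log2 fold change -1.11, adjusted p = 0.000578). The other, EPCAM, was low, at 0.658 RPKM in shRNA-NC and 1.505 RPKM in shRNA-UBC9 on average, and was not called (0.996, adjusted p = 0.0984). Uroplakins, which define differentiated urothelium, reached no more than 0.125 RPKM. The urothelial regulator PPARG fell from 17.54 to 4.214 RPKM (-2.15, adjusted p = 0.00169) and GATA3 fell too (-0.79, adjusted p = 0.016). The endothelial cadherin CDH5 went from 2.868 to 0.6187 RPKM (-2.20, adjusted p = 0.00288), while PECAM1 and VWF stayed under the filter. Of 12 markers of leukocytes and antigen-presenting cells, 2 passed the filter and neither was called, MS4A1 was at 0 in every library, and the summed level ranged from 0.809 to 1.69 RPKM in shRNA-NC and from 0.935 to 2.12 RPKM in shRNA-UBC9. PTPRC, CD3E, LYZ and HLA-DRA were above 0 in 4 libraries and at 0 in shRNA-NC replicate 1 and shRNA-UBC9 replicate 3. These libraries are therefore treated apart below where a result could rest on them.

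Of the 9 ligands, 5 were expressed at 0.5 RPKM or more in all 6 libraries, and all 5 were higher in shRNA-UBC9. These were CD274, PDCD1LG2, PVR, CD276 and NECTIN2, and their adjusted p-values were below 0.05. Across the 12428 genes tested, 36.8% were called at that threshold, 18.8% as higher in shRNA-UBC9, so a call on its own was common in this comparison. The 2 ligands of PD-1 also passed the DEG cutoff of a log2 fold change above 1, which 5.2% of the tested genes did in this direction. In each of the 5 ligands, every shRNA-UBC9 library lay above every shRNA-NC library, a pattern held by 25.7% of the tested genes. The median log2 fold change of the 5 was 0.87, against 0.005 over all tested genes. The other 4 ligands, LGALS9, CD80, CD86 and VTCN1, did not pass the filter of 0.5 RPKM in at least 3 libraries and were not tested. In bulk RNA, a change in the share of cells that express a gene and a change in RNA per cell cannot be told apart.

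**Figure D1:**
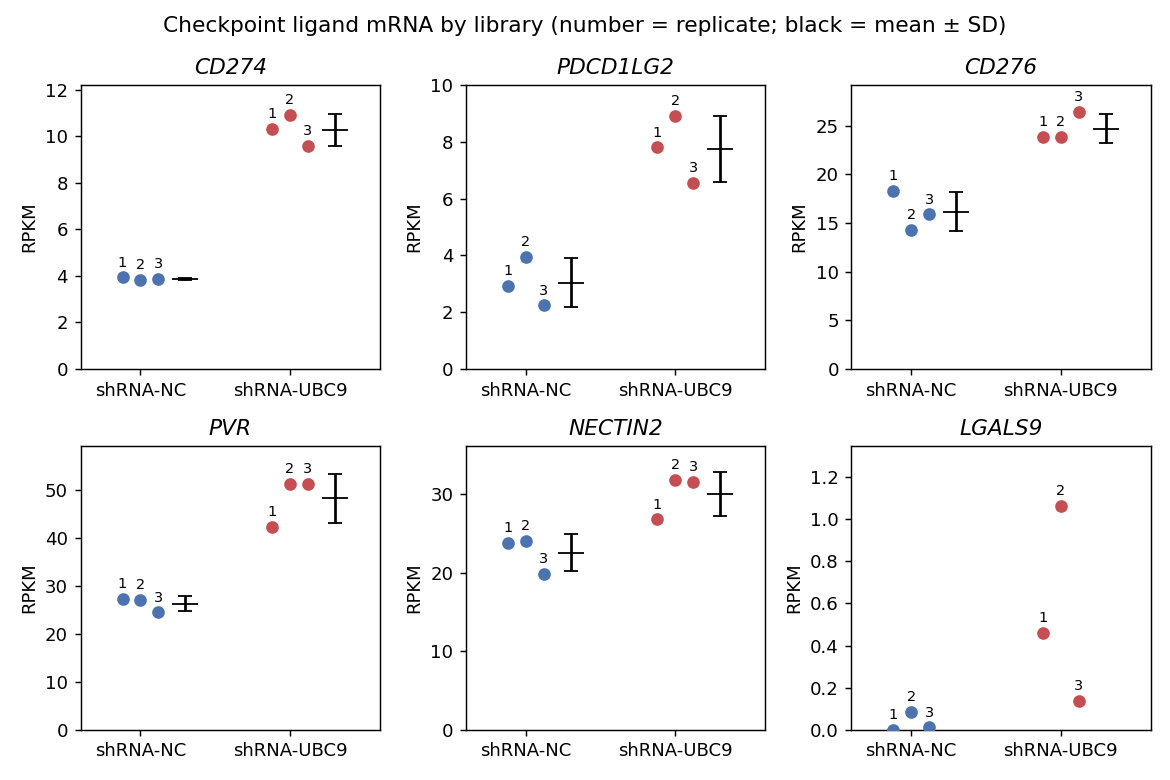
RPKM (y axis, linear, from 0) of 6 checkpoint ligands in the 3 shRNA-NC and 3 shRNA-UBC9 libraries (x axis); each numbered point is a replicate, and black bars give the mean ± SD, left out for LGALS9 because it was not tested. In every panel the lowest shRNA-UBC9 point sits above the highest shRNA-NC point, by a wide margin for CD274 (9.584 against 3.931 RPKM) and a narrow margin for NECTIN2 (26.79 against 24.02 RPKM).

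CD274, which encodes PD-L1, had the largest estimated change of the 5 over all 6 libraries, close to that of PDCD1LG2, and the smallest spread between replicates on the log2 scale. The order of these 2 genes reversed without shRNA-NC replicate 2 (log2 fold change 1.37 for CD274 and 1.55 for PDCD1LG2), without shRNA-UBC9 replicate 3 (1.43 and 1.46) and among the 4 libraries with PTPRC above 0 (1.44 and 1.46). Its level was 3.931, 3.816 and 3.87 RPKM in shRNA-NC and 10.31, 10.93 and 9.584 RPKM in shRNA-UBC9. The 3 control libraries were almost level with each other, and the lowest knockdown library was 2.438 times the highest control. The means were 3.873 ± 0.0574 and 10.27 ± 0.673 RPKM (SD, n = 3 each), a 2.608-fold rise on the log2(RPKM + 0.1) scale (log2 fold change 1.38, SE 0.087, 95% interval 1.18 to 1.58, limma adjusted p = 3.29e-05). Only 3.23% of the tested genes had a larger log2 fold change. CD274 was supported by 482 to 543 reads per library in shRNA-NC and by 1111 to 1582 reads in shRNA-UBC9. The spread of the control libraries, a coefficient of variation of 1.48%, was under the 4.38% that counting alone gives at this depth, so the agreement of these 3 values was closer than their precision.

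PDCD1LG2, which encodes PD-L2, the other ligand of PD-1, rose by a like amount from a more variable baseline. Its level was 2.918, 3.955 and 2.237 RPKM in shRNA-NC and 7.81, 8.904 and 6.563 RPKM in shRNA-UBC9. Replicate 2 was highest and replicate 3 lowest in both groups, and the groups did not overlap. The means were 3.037 ± 0.866 and 7.759 ± 1.171 RPKM (SD, n = 3 each), a 2.55-fold rise (log2 fold change 1.35, SE 0.199, 95% interval 0.89 to 1.81, adjusted p = 0.00161). The SD within groups on the log2 scale was 0.321 for PDCD1LG2 and 0.068 for CD274, against a median of 0.145 over all tested genes. It rested on 179 to 742 reads per library, and counting error accounted for a coefficient of variation of 6.5% in shRNA-NC, where the measured value was 28.5%.

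No shift in the balance between the PD-1 ligands was detectable. The ratio of CD274 to PDCD1LG2 was 1.35, 0.965 and 1.73 in shRNA-NC and 1.32, 1.23 and 1.46 in shRNA-UBC9. The log2 ratio averaged 0.377 ± 0.409 in shRNA-NC and 0.409 ± 0.124 in shRNA-UBC9, a difference of 0.03 (two-sided exact permutation p = 1.0, n = 3 each, smallest possible p = 0.1). Leaving out single libraries moved this difference between -0.18 and 0.23, so its direction depended on which libraries were used, and the spread of shRNA-NC leaves room for wider differences. CD274 and PDCD1LG2 overlapped in level in shRNA-NC, whereas in shRNA-UBC9 every CD274 value exceeded every PDCD1LG2 value.

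PVR, the ligand of TIGIT, CD96 and DNAM-1 also known as CD155, was the most abundant of the 9 ligands in both groups. Its level was 27.25, 27.05 and 24.43 RPKM in shRNA-NC and 42.34, 51.22 and 51.17 RPKM in shRNA-UBC9. The lowest knockdown library was 1.554 times the highest control. The means were 26.24 ± 1.574 and 48.24 ± 5.114 RPKM (SD, n = 3 each), a 1.83-fold rise (log2 fold change 0.87, SE 0.102, 95% interval 0.64 to 1.11, adjusted p = 0.00058). A larger log2 fold change was found in 6.49% of the tested genes. With 2862 to 6351 reads per library, counting error was small beside the spread between replicates.

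NECTIN2, the ligand of TIGIT, PVRIG and DNAM-1 also known as CD112, changed least. Its level was 23.75, 24.02 and 19.85 RPKM in shRNA-NC and 26.79, 31.79 and 31.54 RPKM in shRNA-UBC9. The lowest knockdown library exceeded the highest control by a factor of only 1.115. The means were 22.54 ± 2.332 and 30.04 ± 2.82 RPKM (SD, n = 3 each), a 1.332-fold rise (log2 fold change 0.41, SE 0.11, 95% interval 0.16 to 0.67, adjusted p = 0.0203). This call was lost without shRNA-NC replicate 3 (log2 fold change 0.33, adjusted p = 0.0809), without shRNA-UBC9 replicate 2 (0.37, adjusted p = 0.072) and without shRNA-UBC9 replicate 3 (0.38, adjusted p = 0.0565). The rise of NECTIN2 is thus less secure than that of the other 4.

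The balance of PVR to NECTIN2, which share receptors, moved toward PVR. Their ratio was 1.15, 1.13 and 1.23 in shRNA-NC and 1.58, 1.61 and 1.62 in shRNA-UBC9. These groups were far apart beside their spread. The log2 ratio rose from 0.222 ± 0.067 to 0.68 ± 0.02, a difference of 0.46 (two-sided exact permutation p = 0.1, the smallest that 3 against 3 can give), and it lay between 0.43 and 0.50 when any single library was left out.

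CD276, which encodes the B7 family protein B7-H3, rose moderately from a level already high in the control. Its level was 18.31, 14.32 and 15.87 RPKM in shRNA-NC and 23.86, 23.8 and 26.4 RPKM in shRNA-UBC9. The control libraries spread more widely than the knockdown libraries, and the groups did not overlap. The means were 16.17 ± 2.01 and 24.69 ± 1.481 RPKM (SD, n = 3 each), a 1.53-fold rise (log2 fold change 0.61, SE 0.108, 95% interval 0.37 to 0.86, adjusted p = 0.00343). It was read 2748 to 4768 times per library.

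**Figure D2:**
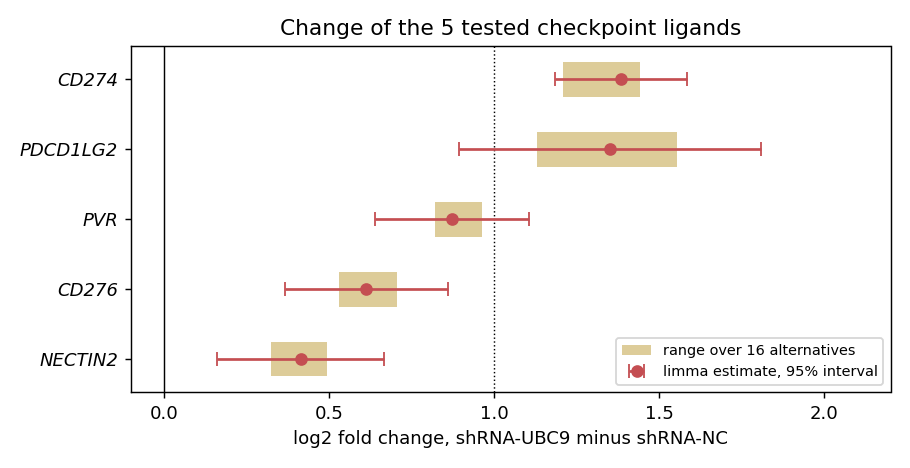
Log2 fold change, shRNA-UBC9 minus shRNA-NC (x axis), of the 5 tested ligands (y axis); points and red bars are the limma estimate with its 95% interval, tan bars the range over 16 alternative analyses, and the dotted line the DEG cutoff of 1. All intervals and ranges lie above 0, CD274 lies wholly above the cutoff with an interval of 1.18 to 1.58, and NECTIN2 comes nearest to 0 with a range of 0.33 to 0.49.

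Galectin-9 mRNA was close to absent in shRNA-NC and was read in all 3 shRNA-UBC9 libraries. LGALS9 was listed at 0, 0.0859 and 0.01034 RPKM in shRNA-NC and at 0.4611, 1.063 and 0.1364 RPKM in shRNA-UBC9. That is 0, 17 and 2 reads against 95, 214 and 22 reads, and the 0 allows up to 3 reads. Every knockdown library lay above every control, and the knockdown libraries differed among themselves by far more than counting error. In each group LGALS9 was lowest in the library with PTPRC at 0, with 0 reads in shRNA-NC replicate 1 and 22 reads in shRNA-UBC9 replicate 3. The part of leukocyte RNA in LGALS9 was not tested. Because it missed the filter it has no call. In the fit without a filter its log2 fold change was 2.08 (SE 0.577) with an adjusted p of 0.0522. The near-identical copies LGALS9B and LGALS9C were at 0 in all 6 libraries, and how the authors' software shared reads between such copies is not stated, so the assignment to LGALS9 is uncertain.

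The classical costimulators and B7-H4 were not expressed at a measurable level. CD80 had 2 reads in shRNA-UBC9 replicate 1 (0.01733 RPKM) and was at 0 elsewhere. VTCN1 had 2 reads in shRNA-NC replicate 2 (0.01908 RPKM) and was at 0 elsewhere. CD86 was at 0 in all 6 libraries, which allows up to 3 reads in each. A change in these 3 genes was not detectable at this depth. CD80 and CD86 are made mostly by antigen-presenting cells. PTPRC, which marks all leukocytes, did not exceed 0.102 RPKM, and its relation to these low values was not tested.

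The order of the ligands was the same from rank 1 to rank 6 in both groups, PVR, NECTIN2, CD276, CD274, PDCD1LG2 and LGALS9. Neighbours in that order did not overlap in their ranges, except CD274 and PDCD1LG2 in shRNA-NC. The summed level of the 9 genes was 76.15, 73.26 and 66.27 RPKM in shRNA-NC and 111.6, 127.7 and 125.4 RPKM in shRNA-UBC9, a 1.69-fold rise (two-sided exact permutation p = 0.1). PVR made up 36.52 ± 0.642% of that sum in shRNA-NC and 39.62 ± 1.493% in shRNA-UBC9. The share of NECTIN2 was 31.2, 32.8 and 30.0% in shRNA-NC and 24.0, 24.9 and 25.2% in shRNA-UBC9, a drop of 6.62 percentage points although its own level was higher. CD274 went from 5.404 ± 0.379% to 8.48 ± 0.801%. For these 3 genes the groups did not overlap, with an exact permutation p of 0.1 each, the smallest possible. The shares of PDCD1LG2 (4.202 ± 1.062% and 6.402 ± 1.011%, exact p = 0.2) and CD276 (22.51 ± 2.572% and 20.36 ± 1.499%, exact p = 0.3) overlapped between the groups. The shares of a sum depend on each other, so these 5 comparisons are not independent.

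**Figure D3:**
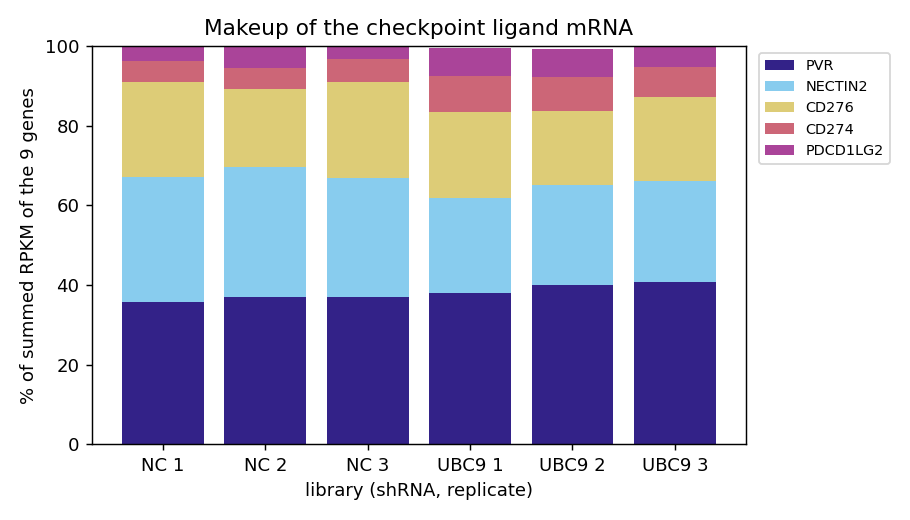
Share of the summed RPKM of the 9 ligands (y axis, percent, from 0) made up by each of the 5 tested ligands in each of the 6 libraries (x axis, shRNA and replicate); the gap to 100% is LGALS9, CD80 and VTCN1. The NECTIN2 band narrows from between 30.0 and 32.8% in shRNA-NC to between 24.0 and 25.2% in shRNA-UBC9, and the CD274 band widens from a mean of 5.404% to 8.48%.

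Values were also taken separately for the libraries with PTPRC above 0 and those with PTPRC at 0. The latter still had 4 of the 12 leukocyte and antigen-presenting cell markers above 0, CD14 among them at 0.657 and 0.752 RPKM. Among the 4 libraries in which PTPRC was above 0 (2 in each group), 4 of the 5 ligands kept an adjusted p below 0.05, and NECTIN2 did not (log2 fold change 0.42, adjusted p = 0.091). Between the 2 libraries in which PTPRC was at 0, 1 in each group and hence with no test, the log2 difference was 1.26 for CD274, 1.14 for PDCD1LG2, 0.91 for PVR, 0.53 for CD276 and 0.41 for NECTIN2. The part of leukocyte RNA in these values was not tested beyond this.

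The T-cell receptors that read these or related ligands were close to absent. Of 11 receptor genes, among them PDCD1, CD28, TIGIT and CD226, none passed the filter, and the highest value in any library was 0.129 RPKM, for PVRIG. CTLA4 was at 0 in all 6 libraries.

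Beyond the 9 genes, other ligands read by lymphocytes or macrophages changed in both directions. Of 15 further ligands, 8 were tested, 4 of them rose, 1 fell and 3 were not called, with a median log2 fold change of 0.39. Over all tested genes, 36.8% were called, 18.8% as higher. NCR3LG1, which encodes B7-H6, the ligand of the natural killer cell receptor NKp30, was at 1.176, 1.395 and 0.9594 RPKM in shRNA-NC and at 3.3, 3.509 and 2.653 RPKM in shRNA-UBC9. Its rise (log2 fold change 1.35, SE 0.165, adjusted p = 0.000674) was close in size to those of the PD-1 ligands. ICOSLG, the ligand of the costimulatory receptor ICOS, rose from 0.337 to 0.75 RPKM (1.05, SE 0.359, adjusted p = 0.0494), just inside the threshold and at a low level. CD47, the signal that restrains macrophages through SIRP-alpha, rose from 7.134 to 11.35 RPKM (0.66, adjusted p = 0.00773), and CD70, the ligand of CD27, rose from 21.16 to 28.28 RPKM (0.42, adjusted p = 0.0164). HMGB1, a chromatin protein that also binds TIM-3, fell from 62.87 to 41.4 RPKM (-0.60, adjusted p = 0.00161). The log2 fold change was -0.13 for VSIR (VISTA), 0.17 for TNFSF9 (4-1BBL) and 0.36 for TNFRSF14 (HVEM, adjusted p = 0.104). The number called higher in this list fell to 2 with a stricter filter (at least 1 RPKM in all 6 libraries), without shRNA-NC replicate 1, without shRNA-NC replicate 3 and among the 4 libraries with PTPRC above 0.

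Genes that carry signals to the CD274 gene were all expressed, and 9 of 15 rose while the other 6 were not called (median log2 fold change 0.44). Over all tested genes, 18.8% were called higher. IRF9, the DNA-binding part of the complex that recognises the ISRE, went from 6.96 to 20.11 RPKM (1.52, adjusted p = 0.000109). IFNGR2, a subunit of the interferon-gamma receptor, was higher by 0.999 (adjusted p = 0.000551), STAT2 by 0.85 and the AP-1 subunit JUN by 0.84. The NF-kappaB subunits NFKB1 (0.60) and RELA (0.44) rose less, as did IRF2 (0.60) and JAK1 (0.31). IRF1, known as the direct interferon-gamma-responsive activator of CD274, did not rise with them. It was at 7.556, 6.619 and 7.518 RPKM in shRNA-NC and at 4.495, 7.238 and 4.348 RPKM in shRNA-UBC9 (-0.46, adjusted p = 0.0834), so that replicate 2 of the knockdown lay within the control range and the other two below it. Without shRNA-UBC9 replicate 2, 1 gene of this list was called lower. JAK2 was level between the groups within a 95% interval of -0.27 to 0.26 (-0.01, adjusted p = 0.963).

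Genes that set the stability, glycosylation and trafficking of PD-L1 protein were mostly not called, as were most tested genes, of which 36.8% were called. Of 15, 14 were tested, 2 rose, 1 fell and 11 were not called, with a median log2 fold change of 0.02, and the share that rose was near the 18.8% of all tested genes. CMTM6, which protects PD-L1 from degradation, was at 25.07 RPKM in shRNA-NC and 27.14 RPKM in shRNA-UBC9 (0.12, adjusted p = 0.311). GSK3B, a kinase that marks PD-L1 for degradation through the ligase subunit BTRC, rose from 8.552 to 12.67 RPKM (0.56, adjusted p = 0.00149). BTRC itself was called higher (0.34, adjusted p = 0.0481) and the sheddase ADAM17 lower (-0.42, adjusted p = 0.0423). Both lay near the threshold. The count called higher in this list stayed at 2 in only 5 of 16 alternatives, and the count called lower stayed at 1 in 8.

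**Figure D4:**
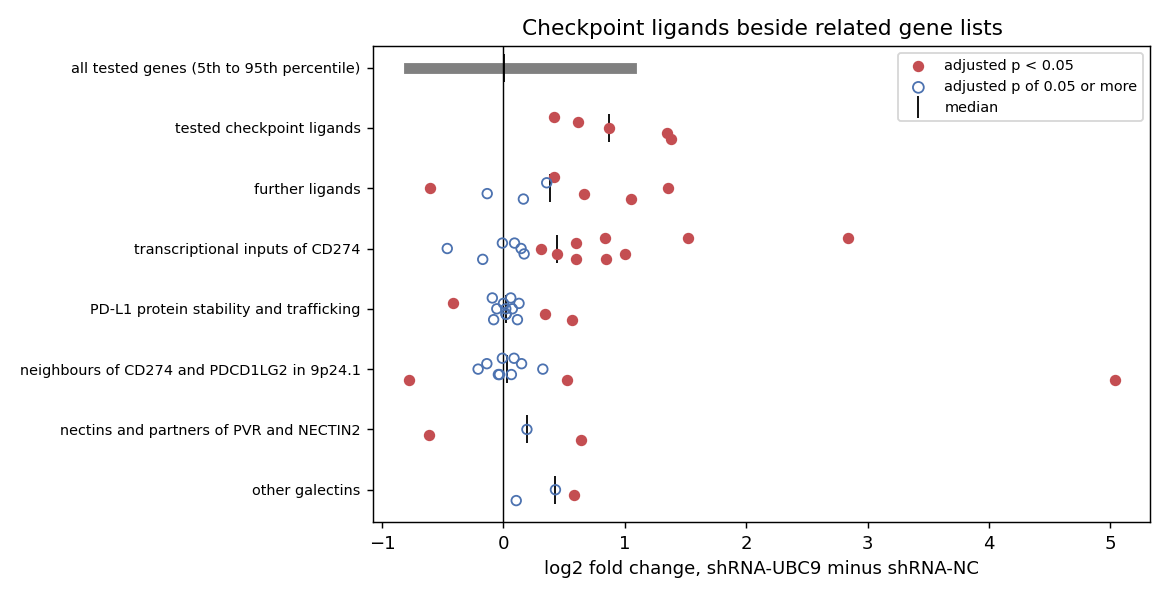
Log2 fold change, shRNA-UBC9 minus shRNA-NC (x axis), of the tested genes of each list (y axis); filled red points have an adjusted p below 0.05, open blue points do not, black ticks are medians, and the grey bar spans the 5th to 95th percentile of all tested genes. The median of the 5 ligands, 0.87, lies to the right of the medians of the other lists, from 0.02 for PD-L1 stability to 0.44 for the inputs of CD274.

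Most tested chromosomal neighbours of the PD-1 ligands were not called, as was true of all tested genes, of which 36.8% were called. Of 18 genes listed around CD274 and PDCD1LG2, 12 were tested, 2 rose, 1 fell and 9 were not called (median log2 fold change 0.03), beside 18.8% of all tested genes called higher, so the share of neighbours that rose was near the background. PLGRKT, 12.2 kb from CD274, rose from 8.232 to 11.86 RPKM (0.53, adjusted p = 0.00371), less than CD274 or PDCD1LG2. On the other side, RIC1, 158.6 kb from CD274, stood at 3.493 and 3.47 RPKM (-0.03, adjusted p = 0.906). JAK2, at 320.6 kb, was described above. IL33, an alarmin cytokine 744.6 kb away, changed most of all, from 0.103, 0.213 and 0.07268 RPKM in shRNA-NC to 7.05, 6.866 and 7.724 RPKM in shRNA-UBC9 (5.04, SE 0.221, adjusted p = 1.3e-05). AK3, 708.5 kb away, fell from 6.102 to 3.511 RPKM (-0.78, adjusted p = 0.00113).

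**Figure D5:**
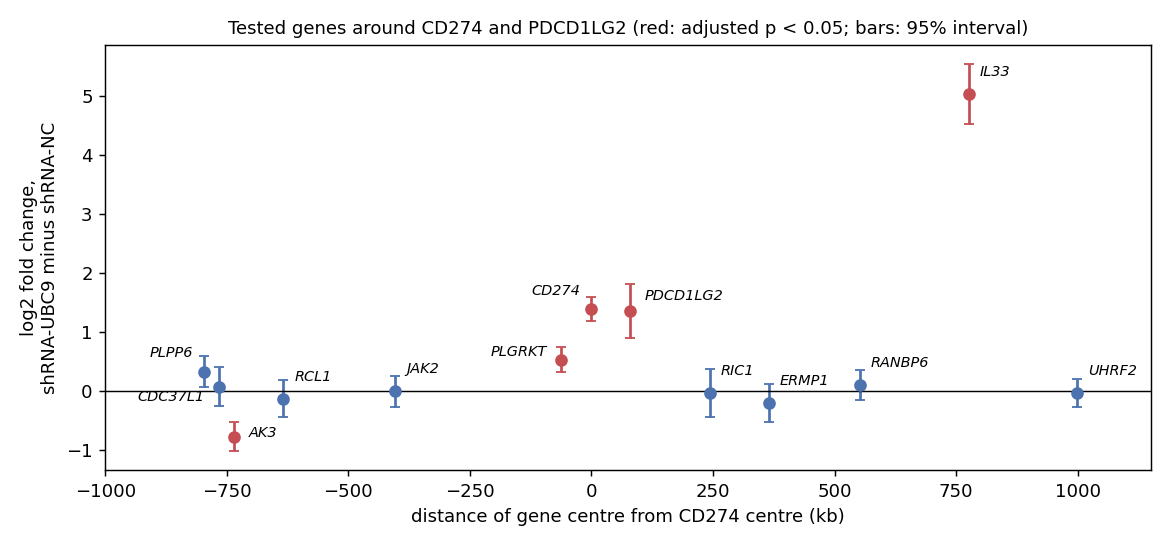
Log2 fold change, shRNA-UBC9 minus shRNA-NC (y axis), of the tested genes around CD274 against the distance of each gene's centre from that of CD274 (x axis, kb), without KIAA2026, for which no coordinates were matched; bars are 95% intervals and red points have an adjusted p below 0.05. CD274 (1.38) and PDCD1LG2 (1.35) stand above most neighbours, which lie near 0, and IL33 (5.04) stands far above all.

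Of 3 tested relatives of PVR and NECTIN2, 1 rose and 1 fell, beside 36.8% of all tested genes called in either direction. NECTIN1 rose from 2.173 to 3.467 RPKM (0.64, adjusted p = 0.00873), and NECTIN3, an adhesion partner of both NECTIN2 and PVR, fell from 5.819 to 3.762 RPKM (-0.62, adjusted p = 0.00217). The nectin-binding scaffold AFDN was not called (0.19, adjusted p = 0.163), and NECTIN4 and CADM1 did not pass the filter. Among the other galectins, LGALS1 was the most abundant gene of any list, at 1148 and 1229 RPKM (0.11, adjusted p = 0.53). LGALS3 rose from 12.18 to 18.46 RPKM (0.58, adjusted p = 0.0247), and LGALS8 was just short of the threshold (0.43, adjusted p = 0.0536). Thus 1 of the 3 tested galectins was called, beside 18.8% of all tested genes called higher, and that count varied between 0 and 2 over the alternatives. Of the 9 listed, 5 were at 0 in every library, and the 3 that passed the filter all stood well above LGALS9.

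The genes whose pattern over the 6 libraries was most like each ligand are given as a description, and with n = 6 libraries that fall into 2 groups such correlations largely follow the group difference. For CD274 they were TM4SF19 (Pearson r = 0.999) and LINC00941 (0.9984), for PDCD1LG2 they were ICAM2 (0.9972) and FGF5 (0.9968), and for PVR they were DEF6 (0.9987) and ALAS1 (0.9981). CD276 was matched most closely by PHLDA3 (0.998) and RELA (0.9976), and NECTIN2 by ABCF1 (0.9927) and MFSD2A (0.9925). Their sizes of change differed widely. TM4SF19 had a log2 fold change of 4.06 against 1.38 for CD274, and FGF5 one of 0.68 against 1.35 for PDCD1LG2.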

How the data were processed

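RNA-seq libraries of T24 cells (3 shRNA-NC, 3 shRNA-UBC9) were analysed. After adaptor trimming, the authors aligned reads to GRCh38 in CLC Biomedical Genomics Workbench 4, with default mapping settings, and deposited RPKM per gene. The annotation release, strand use and handling of reads with several matches are not given in the sources used here, so overlapping and near-identical genes are uncertain, and RPKM does not correct for RNA composition. From these values, log2(RPKM + 0.1) was computed, the 12428 genes that reached 0.5 RPKM in 3 or more libraries were kept, and limma 3.58.1 (R 4.3.3) was used to compare the groups (eBayes with trend, Benjamini-Hochberg adjustment over all tested genes). This scale understates changes of low genes. A call is an adjusted p below 0.05, and a DEG also has a log2 fold change beyond 1. Ratios and shares used two-sided exact permutation tests, which 3 against 3 cannot bring below 0.1.

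Whole reads were recovered from the RPKM steps for 99.94% of the tested genes (tolerance 0.0001 reads, or 1e-07 of the count), with the scale set on genes that have a single exon record in GENCODE 44. A read pair may count as 2 reads, and limits from reads cover counting error only. On these reads, limma's voom called 4601 of 12420 genes. This fit and that of the 4 libraries with PTPRC above 0 were chosen after seeing the data. Other alternatives were the pseudocount, the filter, scaling, quantile normalization, no trend, a replicate block and leaving out each library.

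The 9 genes and the lists were chosen with earlier results of these data known. All 9 are named, as are DEGs of each list and the 2 genes most correlated with each tested ligand. Other list genes were named after their values were seen. The level of the targeted gene and some list genes are not reported here. Code was tested on simulated data. Python 3.11.15, numpy 2.4.6, pandas 2.3.3, scipy 1.17.1 and matplotlib 3.10.9 were used. Sequences and coordinates are RefSeq's, GRCh38.p14.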

Additional observations from a re-analysis of the deposited data

How the results depend on the processing

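CD274, PDCD1LG2, PVR and CD276 kept their direction and an adjusted p below 0.05 in all 16 alternatives, with log2 fold changes of 1.21 to 1.44, 1.13 to 1.55, 0.82 to 0.96 and 0.53 to 0.71 and highest adjusted p-values of 0.00212, 0.0167, 0.0113 and 0.018. The log2 fold change of NECTIN2 ranged from 0.325 to 0.494 when single libraries were left out, and it lost its call without shRNA-NC replicate 3, without shRNA-UBC9 replicate 2, without shRNA-UBC9 replicate 3 and, at 0.417 (adjusted p = 0.091), among the 4 libraries with PTPRC above 0, where fewer samples were fitted. The number of ligands called was 5, or 4 in those settings, and 2 under the DEG cutoff, a count that held in all 16 alternatives. Median scaling and quantile normalization moved the median of all genes by less than 0.05. The count of DEGs over all genes was 981, against 552 with a pseudocount of 1 and 552 with the stricter filter. The count of all called genes was 4576, against 3034 without shRNA-NC replicate 3 and 2847 among the 4 libraries.

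Same-numbered samples did not deviate together (r = -0.367, 0.073 and -0.17), and the highest r was 0.526, for shRNA-NC replicate 1 with shRNA-UBC9 replicate 3. Deviations from means of 3 samples cannot show whether the numbers pair the samples, and the labels do not say. With a replicate block, 3374 genes were called, CD274 had a log2 fold change of 1.38, and all 5 ligands were still called. NECTIN2 lay at the edge of the threshold in that fit (adjusted p = 0.0499). Depth limits statements on CD80, CD86 and VTCN1, which had at most 2 reads in a library. Statements on LGALS9 are limited by the filter, which it missed, and by the spread of its shRNA-UBC9 libraries (95, 214 and 22 reads).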
